A study of Ovis aries with 6 samples.

Results

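Matrix proteases and the proteins that inhibit them were examined in sheep (Ovis aries) ovaries: the genes for matrix metalloproteinases (MMP), for the ADAM and ADAMTS metalloproteinases, for cathepsins and HTRA serine proteases, for the tissue inhibitors of metalloproteinases (TIMP) and for serpins. Members were every gene whose whole symbol is one of those family names followed by its number or letter (for serpins both), taking the row of highest mean where a symbol had several; names with further letters, such as ADAMTSL, were left out. The rule gave 62 genes of the 14480 listed: 9 MMP, 10 ADAM, 15 ADAMTS, 11 cathepsin, 3 HTRA, 3 TIMP and 11 serpin genes. The study compared ovaries of Hu sheep with those of Mongolian sheep, all taken during estrus, with 3 libraries of polyadenylated RNA per breed and no treatment or genetic change named in the labels. Neither age nor the number of animals behind a library is given, and p-values therefore measure only the spread between libraries, which may be technical. The series title speaks of exosomes from ovaries, whereas every sample is labelled as ovary.

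An ovarian follicle ruptures at ovulation through a wall of collagen and basement membrane, and its remains are rebuilt into a corpus luteum. Both steps are known to need proteases that cut the matrix, released as inactive precursors and held in check by inhibitors. TIMPs bind metalloproteinases in a tight complex, and most serpins trap serine proteases by presenting a bait loop that locks the enzyme once it is cut. Some members act elsewhere: cathepsins work mainly in lysosomes, HTRA2 in mitochondria, SERPINB1 in the cytosol, and SERPINH1 is a collagen chaperone without inhibitory activity.

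Values are FPKM, the number of sequenced fragments scaled by transcript length and by library total, so levels of different genes can be set side by side. Read counts were not used here, the depth behind each value is unknown, and a gene at 0 is described only as listed at 0. The libraries differed in scale and in how much they listed. Factors from the median of ratios were 0.666, 0.854 and 1.6 for Hu 1, 2 and 3. For Mongolian 1, 2 and 3 they were 1.08, 1.003 and 1.19. The 2 most abundant rows held 53.3% of the summed FPKM in Hu 3 and 74.2% to 79.7% in the other libraries. Levels and orders of single libraries below are those of the values as deposited. A high value in Hu 3 or a low value in Hu 1 can depend on this scale. Of all 14480 rows, 44.9%, 55% and 92.1% stood above 0 in Hu 1, 2 and 3, against 72.8%, 79.2% and 73.2% in Mongolian 1, 2 and 3. Ovarian markers were present: INHA, the inhibin alpha subunit of granulosa cells, was listed at 15.6 FPKM or more in every library and the stromal gene DCN at 71.7 or more, while the granulosa markers CYP19A1, AMH and FOXL2 had no row under those symbols. Markers of blood, T and NK cells, neutrophils and oocytes summed to 5.94 FPKM or less per list in every library. Most of these markers had no row, however. Listed by symbol were 1 of 4 for blood, 2 of 6 for T and NK cells, 2 of 5 for neutrophils and 2 of 7 for oocytes. The low sums therefore do not show that these cells were scarce. In ovary pieces such as these, fewer cells of a type and less RNA per cell cannot be told apart.

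The number of protease and inhibitor genes above 0 varied with the library. Hu 1 listed 32 of the 62, Hu 2 listed 35 and Hu 3 listed 56, and Mongolian 1, 2 and 3 listed 43, 46 and 45. All 6 libraries listed 26 of the genes, and 12 were listed in a single library, of which 9 in Hu 3 alone. Those 9 were ADAM32, ADAMTS6, ADAMTS18, ADAMTS20, HTRA4, MMP1, MMP24, SERPINA14 and SERPINI1, at levels from 0.14 FPKM in ADAMTS20 to 2.72 in SERPINA14. Another 5 genes (ADAM10, ADAM15, ADAMTS10, ADAMTS12 and HTRA2) were listed in all 3 Mongolian libraries and, among the Hu libraries, in Hu 3 alone. Zeros were frequent in ADAM and ADAMTS genes: 1 of 10 ADAM and 4 of 15 ADAMTS genes were listed in all 6 libraries, against 7 of 11 cathepsins, 7 of 11 serpins and 3 of 3 TIMPs.

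**Figure D1:**
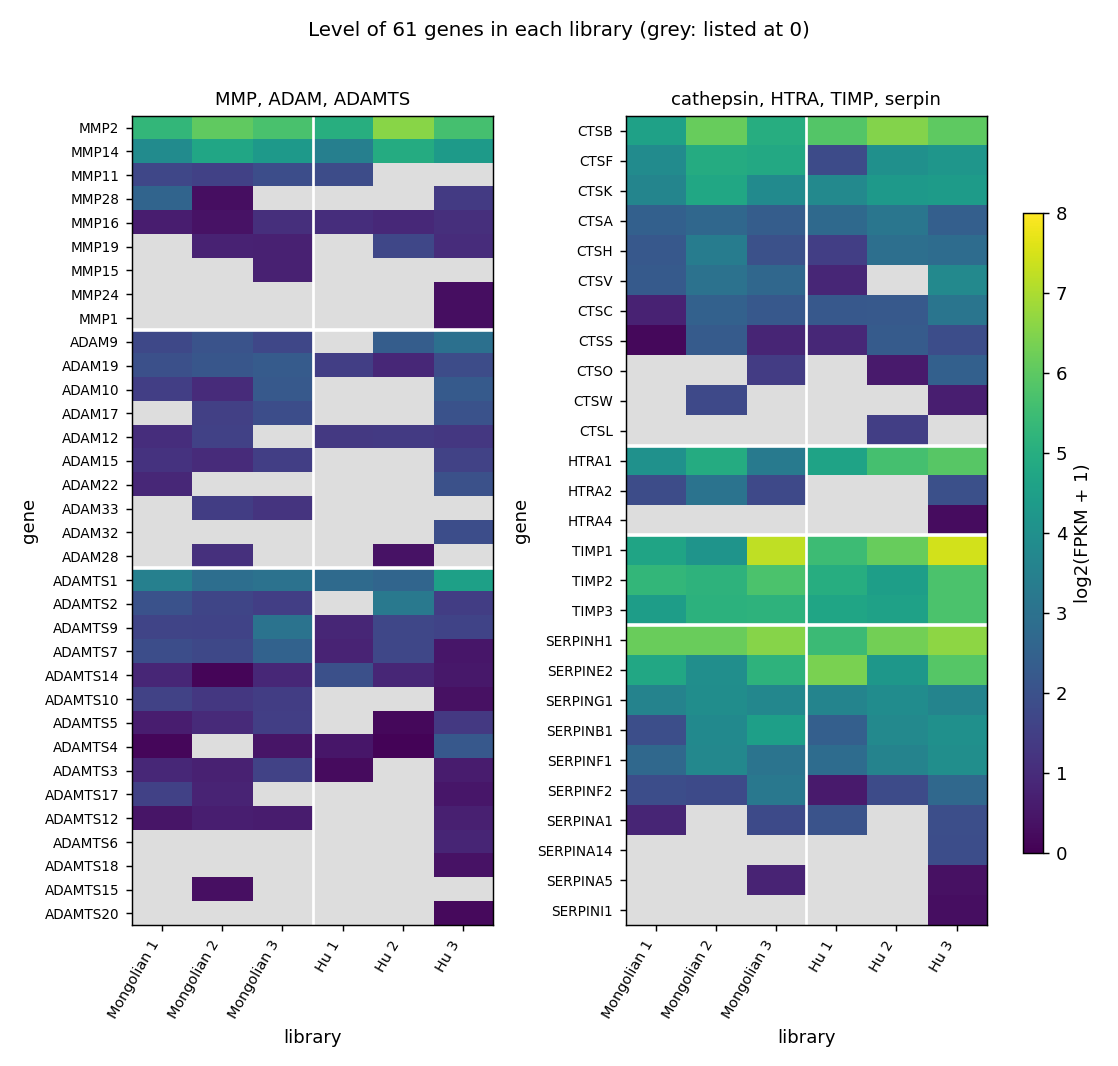
Level of 61 of the 62 genes (rows, grouped by family) in each library (columns) as log2(FPKM + 1), with genes listed at 0 in grey. Hu 1 and Hu 2 hold the most grey cells and Hu 3 the fewest, while TIMP1, SERPINH1, MMP2 and CTSB are bright in every library.

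A few genes carried most of the signal. In order of mean FPKM over the 6 libraries they were TIMP1 (79.4), SERPINH1 (75.7), CTSB (55.7), MMP2 (54.9), SERPINE2 (39.02), TIMP2 (38.2), TIMP3 (31.8) and HTRA1 (31.1). These 8 genes made up between 62.9% and 80.2% of the summed FPKM of all 62 in each library. Neighbours in that order did not separate beyond their spread: TIMP1 ranged from 16.8 to 173 FPKM over the libraries and SERPINH1 from 43.2 to 98.4. Below them MMP14 averaged 19.5 FPKM, CTSF 17.5, CTSK 17.02, SERPING1 12.2 and SERPINB1 11.6, and 45 of the 62 genes averaged under 5 FPKM.

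**Figure D2:**
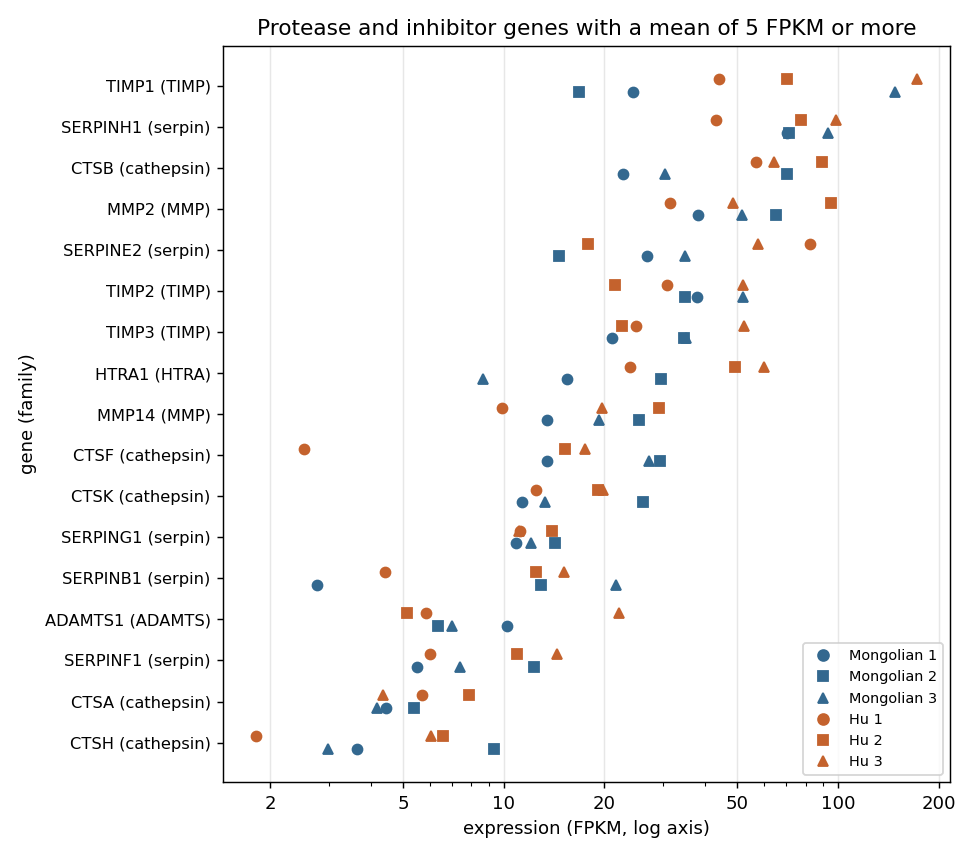
FPKM on a log axis for the 17 genes with a mean of 5 FPKM or more, with a point for each library (blue Mongolian, orange Hu; circle, square and triangle for replicates 1, 2 and 3). The breeds' points overlap in each of the 17 genes, and TIMP1 spreads from 16.8 to 173 FPKM.

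The sum of all 62 genes was 420, 606 and 825 FPKM for Hu libraries 1 to 3, compared with 376, 536 and 642 for Mongolian libraries 1 to 3. Of the summed FPKM left after the 2 most abundant rows of the table were set aside, this was 0.463%, 0.584% and 0.392% for Hu libraries, against 0.307%, 0.42% and 0.559% for Mongolian ones. The breeds overlapped on either scale. TIMP transcripts outweighed MMP transcripts in 4 of the 6 libraries: the ratio of summed TIMP to summed MMP FPKM was 2.22, 0.898 and 3.83 for Hu libraries 1 to 3, compared with 1.41, 0.916 and 3.11 for Mongolian libraries. The 2 libraries below 1 were replicate 2 of each breed, and the 2 highest were replicate 3 of each breed, and both breeds spanned a like range.

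**Figure D3:**
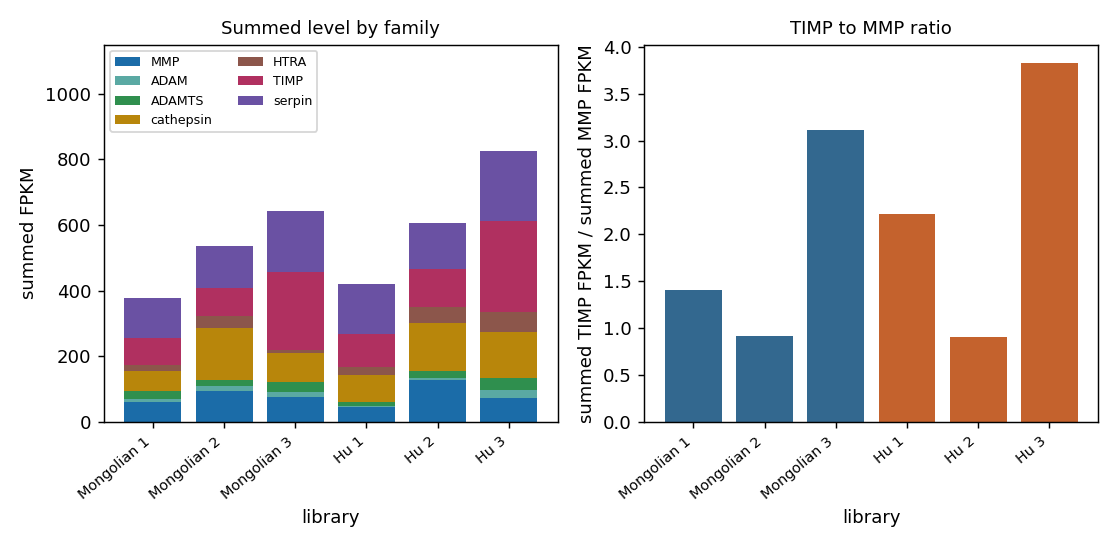
Summed FPKM of each family by library (left, stacked bars) and the ratio of summed TIMP to summed MMP FPKM (right, blue Mongolian, orange Hu). The ratio runs from 0.898 in Hu 2 to 3.83 in Hu 3, with both breeds spread over that range.

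Breeds were compared gene by gene with limma on log2(FPKM + 1), Hu minus Mongolian, over the 9971 genes that reached 0.5 FPKM in 3 or more libraries. Of the 62 genes 41 passed this filter. None of the 41 had an adjusted p under 0.05 (0 genes, 0% of the 9971 tested), and the lowest adjusted p among them was 0.998. At an unadjusted p under 0.05 there was 1 gene higher in Hu, HTRA1 (0.913% of all genes tested), and 1 lower, ADAMTS10 (2.82% of all genes tested), which passed the filter through its Mongolian libraries alone. Before any scaling, the Hu libraries exceeded every Mongolian library in 0 of the 41 (1.88% of all genes tested). They lay under every one in 4, ADAM19, ADAMTS3, ADAMTS7 and ADAMTS10 (6.05% of all genes tested). Both counts depended on scale. Hu lay above in 1 and below in 3 with median-of-ratios scaling, and above in 2 and below in 3 with quantile normalization. Not all 4 named genes therefore stayed below under those scalings. A gene's 95% confidence interval (CI), unadjusted, reached 1.39 to either side at the median. In limma these intervals and p-values combine a gene's own spread with the trend over all genes tested, so they do not measure that gene's spread alone. Leaving out a single library turned the sign of the difference or moved it by over 1.5 times in 36 of the 41 genes. When limma weighted libraries by their estimated spread, with Hu 2 at 3.64 and Hu 3 at 0.25, it called 633 genes (6.35% of those tested), of which 3 were members, all lower in Hu: CTSV (adjusted p = 0.034), HTRA2 (adjusted p = 0.0344) and ADAMTS10 (adjusted p = 0.0421). Each of the 3 was listed at 0 in Hu 2, the library given the most weight. The sign of 11 of the 41 differences turned under these weights, SERPINE2 among them (-0.024).

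Of the 41 genes 18 had a positive log2 difference (43.9%), against 32.3% of all genes tested. Their median was -0.06 (quartiles -0.69 and 0.41), and that of all genes tested was -0.28. The median of all genes moved to -0.23 when libraries were scaled by the median of ratios and to -0.09 with quantile normalization. It moved to -0.37 when summed FPKM without the 2 most abundant rows was made equal. The median of the 41 moved to 0.10, 0.03 and -0.11 in that order. It lay 0.22 above all genes as deposited and 0.33, 0.12 and 0.27 above under those scalings. Without Hu 2 it lay at the level of all genes (-0.18 for both). The genes of higher level leaned to Hu more than the scarce ones did, as in the table as a whole: 10 of 17 with a mean of 5 FPKM or more were higher in Hu (38.7% of such genes in the table) and 8 of 24 of the others (28.8%).

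**Figure D4:**
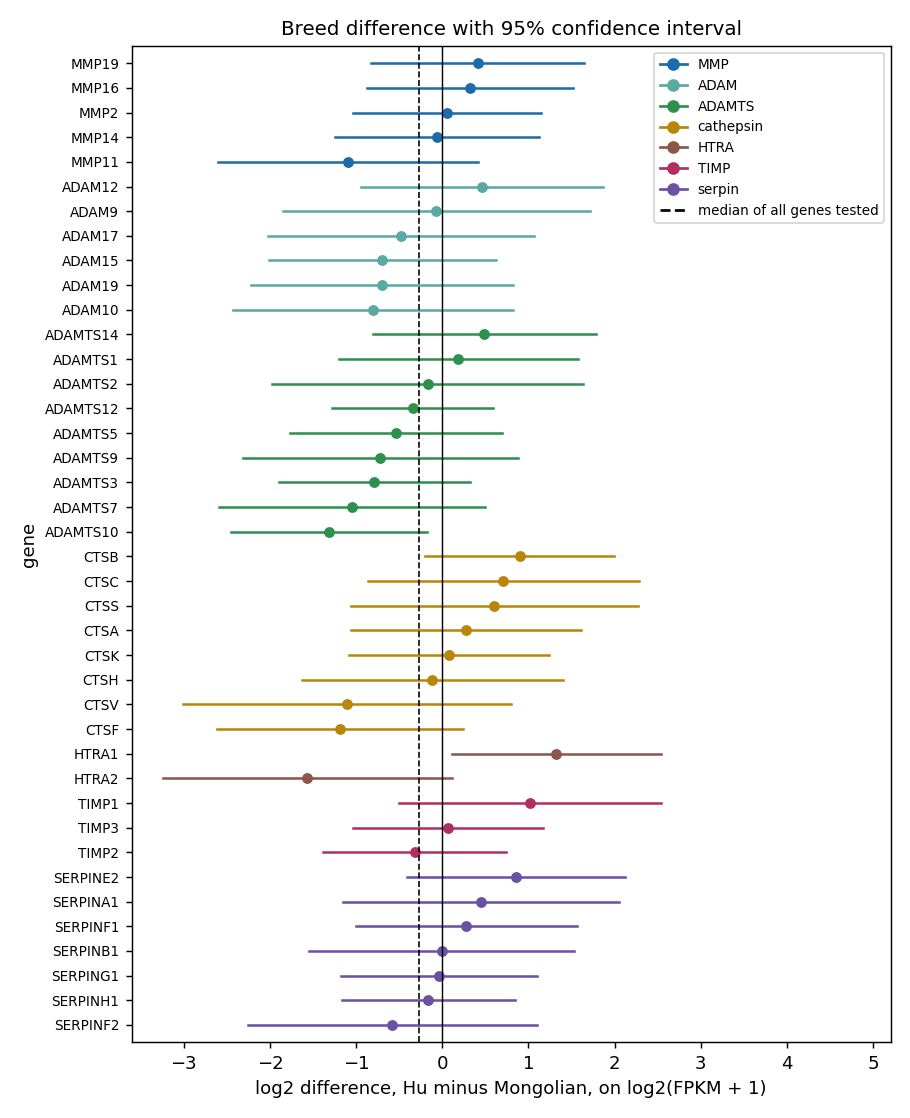
Log2 difference (Hu minus Mongolian, on log2(FPKM + 1)) of 40 of the 41 genes tested, coloured by family, with unadjusted 95% confidence intervals; the dashed line is the median of all genes tested, -0.28. Of those drawn, the intervals of HTRA1 and ADAMTS10 alone leave out 0, and no gene has an adjusted p under 0.05.

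The matrix metalloproteinases were led by MMP2 and MMP14, at similar levels in both breeds. MMP2, a gelatinase that digests basement membrane collagen, stood at 31.3, 94.99 and 48.4 FPKM for Hu libraries 1 to 3, compared with 38.1, 65.4 and 51.5 for Mongolian libraries 1 to 3. Its lowest and highest values were both in Hu. Its mean was 58.2 ± 33.0 FPKM for Hu and 51.6 ± 13.6 for Mongolian ovaries (SD, n = 3 each), and the log2 difference was 0.06 with a 95% CI -1.03 to 1.15, and its direction turned without Hu 2 (-0.36) or Mongolian 1 (-0.14). MMP14, a membrane-anchored collagenase that also activates the MMP2 precursor, stood at 9.89, 29.2 and 19.7 FPKM for the Hu ovaries and 13.5, 25.4 and 19.2 for the Mongolian ovaries. It too was lowest in Hu 1 and highest in Hu 2, with a log2 difference of -0.06 (95% CI -1.25 to 1.13) that turned after median-of-ratios scaling (0.10), without Hu 1 (0.34) and without Mongolian 2 (0.15).

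MMP2 and MMP14 kept nearly the same order over the libraries, from Hu 1 and Mongolian 1 at the bottom to Mongolian 2 and Hu 2 at the top; Hu 3 and Mongolian 3 alone changed places. With 3 libraries a breed, too few for a value within a breed, pairs were compared over all 6 libraries: log2(FPKM + 1) of the pair gave Pearson's r = 0.961 (exact permutation test, two-sided, p = 0.00556; adjusted over 5 pairs 0.0139) and Spearman's rho = 0.943 (exact permutation p = 0.0167, adjusted 0.0417). Without the libraries farthest from the median of MMP2, Hu 1 and Hu 2, r was 0.982 over the other 4, and after median-of-ratios scaling it was 0.976 over all 6. By r with MMP2, MMP14 ranked 11 among the 9970 other genes tested. TIMP2, the inhibitor that tethers the MMP2 precursor to MMP14 at the cell surface, did not share the order: r was -0.432 with MMP2 (exact permutation p = 0.394, adjusted 0.493; rho -0.2, exact permutation p = 0.714) and -0.194 with MMP14 (exact permutation p = 0.701; rho -0.257, exact permutation p = 0.658). All 5 pairs were chosen after the values were seen, so their p-values are descriptive and do not measure chance. Stromal markers, which could mark the cells making these transcripts, were listed in 6 of 7 cases, TCF21 being the exception, and summed to 946, 1138 and 1028 FPKM for Hu libraries, compared with 978, 944 and 876 for Mongolian ones. Their part in the shared order was not tested.

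**Figure D5:**
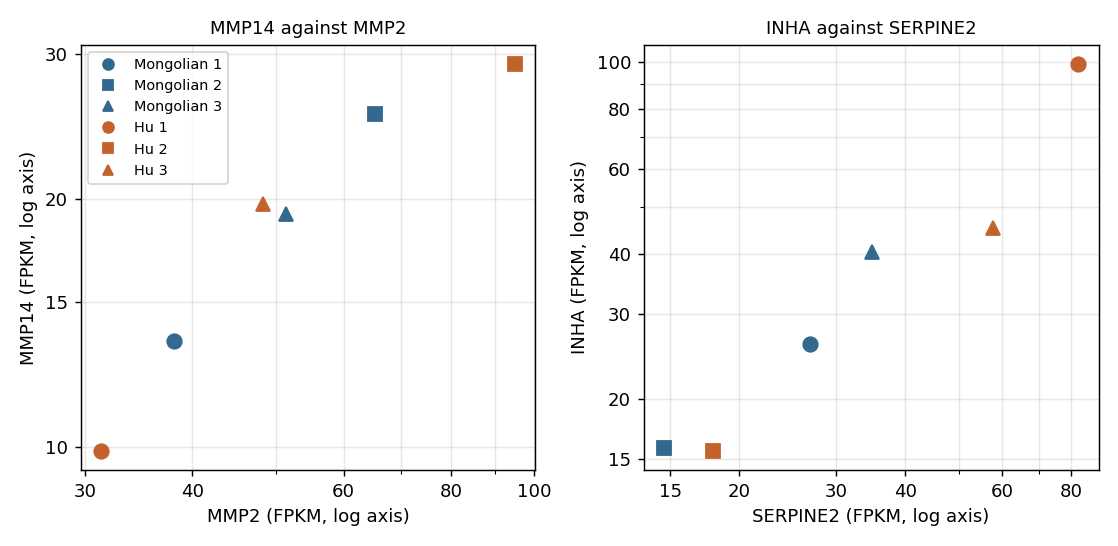
MMP14 against MMP2 (left) and INHA against SERPINE2 (right), both axes in FPKM on log scales, with a point for each library (blue Mongolian, orange Hu). In the left panel the points run from Hu 1 (31.3 and 9.89) to Hu 2 (94.99 and 29.2), and in the right panel Hu 1 is highest on both axes (82.2 and 99.1).

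The other MMP genes were scarce. MMP11, stromelysin 3, stood at 2.59, 0 and 0 FPKM among Hu and 2.25, 1.89 and 2.72 among Mongolian libraries. It was listed at a like level in Hu 1 and in every Mongolian library, and at 0 in the other Hu libraries (log2 difference -1.09, SE 0.71, limma adjusted p = 0.998; -1.71 without Hu 1 and -0.48 with quantile normalization). MMP16, a membrane-type enzyme, lay between 0.915 and 1.11 FPKM in Hu and between 0.318 and 1.09 in Mongolian. MMP19, which is made in ovulating follicles in other species, stood at 0, 2.26 and 1.04 FPKM across Hu libraries, against 0, 0.708 and 0.657 across Mongolian ones, with a log2 difference of 0.41 (SE 0.58), 0.0135 without Hu 2 and 0.86 without Hu 1. Below the filter, MMP28 reached 4.93 FPKM in Mongolian 1 and 1.56 in Hu 3, and MMP15, MMP24 and the collagenase MMP1 were each listed in a single library at 0.673 FPKM or less. MMP9, the other gelatinase, had no row under that symbol.

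ADAM genes, which encode membrane proteases that shed growth factors and receptors from cell surfaces, had 1 positive and 5 negative log2 differences among the 6 tested, none past the test; of all genes tested 32.3% were positive. Their median was -0.58, against -0.28 over all genes, and lay at -0.28 without Hu 1 and -1.04 without Hu 3. With each scaling 4 or 5 of the 6 were negative. ADAM19 stood at 1.82, 0.844 and 2.65 FPKM for the Hu ovaries and 2.87, 3.36 and 3.86 for the Mongolian ovaries. Every Hu value was below every Mongolian value, with means of 1.77 ± 0.902 and 3.37 ± 0.496 (SD, n = 3 each) and a log2 difference of -0.70 (95% CI -2.22 to 0.82, limma adjusted p = 0.998), -0.44 without Hu 2 and -0.38 with quantile normalization. ADAM10 and ADAM17, the main sheddases of NOTCH receptors and of EGF-like ligands such as amphiregulin, were listed at 0 in Hu 1 and Hu 2. As deposited, both were at their highest in Hu 3, the library with the largest median-of-ratios factor (1.6).

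ADAM10 reached 3.84 FPKM in Hu 3, against 1.77, 0.969 and 3.69 across Mongolian libraries, a log2 difference of -0.80 (SE 0.76), -1.56 without Hu 3 and -0.42 without Hu 1 or Hu 2. ADAM17 reached 3.02 FPKM in Hu 3, against 0, 1.89 and 2.74 across Mongolian libraries, a log2 difference of -0.48 (SE 0.72), -1.14 without Hu 3 and -0.096 without Mongolian 3. Hu 3 was thus close to the highest Mongolian library for both genes. The other 2 Hu libraries, at 0 for both, also listed the fewest rows of all, and the part of that in the differences was not tested. ADAM15 had the same pattern, at 1.96 in Hu 3 and 0.977 to 1.81 in Mongolian. ADAM9 was listed at 0 in Hu 1 and at 4.09 and 6.71 in Hu 2 and Hu 3, above all Mongolian values (2.25 to 3.16), and its log2 difference of -0.07 turned to 0.81 without Hu 1. ADAM12 was the single gene of the family with a positive difference (0.46, and 0.028 without Mongolian 3), at 1.45 to 1.55 FPKM for Hu ovaries, against 1.08, 1.89 and 0 for Mongolian ones. The remaining genes were ADAM22, ADAM28, ADAM32 and ADAM33, each listed in at most 2 libraries and at 2.95 FPKM or less; ADAM22 and ADAM32 lack a working protease site.

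ADAMTS genes, secreted relatives of the ADAMs that cut proteoglycans and procollagens, had 2 positive and 7 negative log2 differences among the 9 tested, none past the test, beside the 32.3% positive over all genes. Their median was -0.54, against -0.28 over all genes, and lay at -0.29 without Hu 1 and -0.79 without Hu 3. With each scaling 6 or 7 of the 9 were negative. ADAMTS1, the versican-cleaving protease induced by the preovulatory gonadotropin surge, was the most abundant. It stood at 5.84, 5.15 and 22.2 FPKM among Hu and 10.2, 6.37 and 7.004 among Mongolian libraries. Hu held both its highest value, in Hu 3, and its 2 lowest, and the log2 difference of 0.19 (95% CI -1.20 to 1.58) turned to -0.43 without Hu 3. ADAMTS4, another proteoglycanase, was likewise highest in Hu 3 (3.57 FPKM) and at 0.4 or less in each other library, under the filter.

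ADAMTS10, which acts on fibrillin microfibrils, was listed at 0, 0 and 0.286 FPKM across Hu libraries, against 1.95, 1.48 and 1.72 across Mongolian ones. The Mongolian libraries lay close together and all 3 Hu libraries lay below them. It was the only member to pass the filter through the libraries of a single breed, so a gene low in Mongolian as well would not have been tested, and its values are given as a description. The log2 difference was -1.32 (95% CI -2.45 to -0.18, limma adjusted p = 0.998), and it lay between -1.44 and -1.26 when a library was left out, at -0.96 with quantile normalization and at -3.53 with a pseudocount of 0.1. ADAMTS7, a protease of cartilage oligomeric matrix protein, stood at 0.742, 2.22 and 0.414 FPKM for the Hu ovaries and 2.68, 2.33 and 4.67 for the Mongolian ovaries. Hu 2 came close to the lowest Mongolian value, and the log2 difference was -1.04 (SE 0.73, limma adjusted p = 0.998), and -0.52 with quantile normalization. ADAMTS3, which removes the amino-terminal propeptide of procollagen, was listed at 0.188, 0 and 0.512 FPKM among Hu and 0.863, 0.661 and 1.98 among Mongolian libraries, again without overlap (log2 difference -0.79, SE 0.52, and -0.21 with quantile normalization).

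Both relatives with the same substrate overlapped between breeds. ADAMTS2 stood at 0, 8.32 and 1.74 FPKM across Hu libraries, against 3.08, 2.16 and 1.82 across Mongolian ones, so the gene's highest level and its 0 were both in Hu (log2 difference -0.17, from -1.001 without Hu 2 to 0.61 without Hu 1). ADAMTS14 stood at 2.85, 0.823 and 0.42 FPKM for the Hu ovaries and 0.82, 0.0831 and 0.839 for the Mongolian ovaries, highest in Hu 1 (log2 difference 0.49, and 0.067 without Hu 1). The proteoglycanases ADAMTS5 and ADAMTS9 had log2 differences of -0.54 and -0.72, with their highest values in Mongolian 3 (1.81 and 7.32 FPKM); in a RefSeq annotation of a Rambouillet genome (ARS-UI_Ramb_v3.0) ADAMTS5 is the neighbour of ADAMTS1. ADAMTS12 lay at 0.623 FPKM or less in every library. ADAMTS6, ADAMTS15, ADAMTS17, ADAMTS18 and ADAMTS20 were under the filter, with ADAMTS17 the highest of them at 1.9 in Mongolian 1.

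Cathepsins were the most abundant protease family by sum, at 84.7, 148 and 140 FPKM among Hu and 60.2, 158 and 89.6 among Mongolian libraries. CTSD and CTSZ had no row under those symbols and are not in these sums. CTSB, a lysosomal cysteine protease that is also secreted, was the most abundant of the listed cathepsins in every library. It stood at 57.0, 89.7 and 64.4 FPKM across Hu libraries, against 22.7, 70.1 and 30.5 across Mongolian ones. Mongolian 2 lay within the Hu range, and the other Mongolian libraries lay below all Hu libraries. Means were 70.3 ± 17.2 and 41.1 ± 25.5 (SD, n = 3 each), a log2 difference of 0.90 (95% CI -0.20 to 1.995, limma adjusted p = 0.998) that lay between 0.57 and 1.36 when a library was left out.

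CTSF differed the other way. It stood at 2.51, 15.2 and 17.5 FPKM for the Hu ovaries and 13.5, 29.3 and 27.1 for the Mongolian ovaries, with Hu 1 far below the rest. The log2 difference was -1.18 (SE 0.67, limma adjusted p = 0.998), and -0.42 without Hu 1. CTSV was listed at 0.832, 0 and 12.5 FPKM among Hu and 3.77, 7.03 and 5.43 among Mongolian libraries. CTSL, its close relative and a protease linked to follicle rupture in mice, was listed only in Hu 2, at 1.8 FPKM, the library in which CTSV was listed at 0. Reads of so similar a pair may be shared between the 2 rows, and CTSV has no entry by symbol in the RefSeq table, so neither row is a firm measure of its gene.

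CTSK, the collagen-digesting cathepsin of osteoclasts and fibroblasts, had similar means, at 12.5, 19.1 and 19.8 FPKM across Hu libraries, against 11.4, 26.1 and 13.3 across Mongolian ones (log2 difference 0.08, 95% CI -1.08 to 1.24). CTSS, its neighbour in the RefSeq annotation and a cathepsin of antigen-presenting cells, stood at 0.84, 3.95 and 2.74 FPKM for the Hu ovaries and 0.119, 3.86 and 0.781 for the Mongolian ovaries. The 2 libraries with the highest CTSS, Hu 2 and Mongolian 2, also had the highest CD68, a macrophage marker (19.3 and 29.1 FPKM, against 7.42 or less elsewhere); over the 6 libraries r was 0.81 (exact permutation p = 0.0528, adjusted over 5 pairs 0.088) and rho 0.771 (exact permutation p = 0.103, adjusted 0.172), with r 0.889 without the 2 libraries farthest from the median of CTSS. The pair was chosen after the values were seen. Of 7 macrophage markers 6 were listed, CD163 being the exception. Their sums were 7.78, 22.3 and 24.4 FPKM among Hu and 8.78, 45.6 and 5.67 among Mongolian libraries. CSF1R was highest in Mongolian 2 (1.77 FPKM) and listed at 0 in Hu 1 and Mongolian 1. Other markers did not share the order of CTSS. AIF1 and LYZ were listed at 0 in Hu 2, and MRC1 was highest in Hu 1 (2.45, against 1.58 in Hu 2). CD14 stood at 2.28 in Mongolian 1, where CTSS was lowest. The part of macrophages in the level of CTSS was not tested.

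CTSC, the protease that activates granule serine proteases, stood at 3.61, 3.75 and 7.7 FPKM across Hu libraries, against 0.7, 4.56 and 3.61 across Mongolian ones. Mongolian 1 was low and Hu 3 high, and the log2 difference of 0.71 (SE 0.74) shrank to 0.18 without Mongolian 1. CTSA, a serine carboxypeptidase, lay between 4.17 and 7.86 in all libraries and CTSH between 1.82 and 9.34. CTSO, at most 4.42 in Hu 3, and CTSW were under the filter; CTSW, a cathepsin of cytotoxic lymphocytes, was listed in Mongolian 2 (2.42) and Hu 3 (0.604), and the markers CD3E and CD2 of those cells summed to 0.98 FPKM or less in any library.

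HTRA1, a secreted serine protease that cuts matrix proteoglycans and fibronectin, had the smallest unadjusted p of the genes higher in Hu. It stood at 23.8, 49.3 and 59.9 FPKM for the Hu ovaries and 15.4, 29.5 and 8.67 for the Mongolian ovaries. As deposited, Mongolian 2 lay above Hu 1, so the breeds overlapped by that single pair of libraries. Hu 1 had the smallest median-of-ratios factor (0.666, against 1.003 for Mongolian 2), and the overlap can depend on this scale. Means were 44.3 ± 18.6 and 17.9 ± 10.6 (SD, n = 3 each), with a log2 difference of 1.32 (95% CI 0.11 to 2.54, limma adjusted p = 0.998). It lay between 0.92 and 1.75 when a library was left out and between 1.28 and 1.48 with other scalings or pseudocounts.

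HTRA2, a protease of the mitochondrial intermembrane space rather than of the matrix, had the largest difference of the 41 genes in the values as deposited; without Hu 1 (-1.24) or Mongolian 2 (-1.16) others were larger, such as HTRA1 (1.71 and 1.75). It was listed at 0, 0 and 2.89 FPKM among Hu and 2.66, 7.21 and 2.37 among Mongolian libraries. Hu 3 lay within the Mongolian range and the other 2 Hu libraries were listed at 0, with a log2 difference of -1.57 (SE 0.79, limma adjusted p = 0.998). HTRA4 was listed in Hu 3 alone, at 0.204 FPKM, and HTRA3 was not listed by symbol.

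The TIMP genes were abundant in every library and overlapped between breeds. TIMP1, the inhibitor most readily induced in tissue repair, stood at 44.0, 70.2 and 173 FPKM across Hu libraries, against 24.3, 16.8 and 149 across Mongolian ones. Hu 3 and Mongolian 3 stood apart from the other 4 libraries, which lay at 70.2 or less. Its means were 95.6 ± 68.02 and 63.2 ± 74.0 (SD, n = 3 each), with a log2 difference of 1.02 (95% CI -0.51 to 2.54, limma adjusted p = 0.998); it was 1.96 without Mongolian 3 and 0.42 without Mongolian 2.

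TIMP2 stood at 30.8, 21.6 and 51.8 FPKM for the Hu ovaries and 37.9, 34.7 and 52.1 for the Mongolian ovaries, and TIMP3, which binds to the matrix itself and also inhibits ADAM and ADAMTS enzymes, at 24.8, 22.6 and 52.3 FPKM among Hu and 21.1, 34.6 and 35.1 among Mongolian libraries. As deposited, both were highest in replicate 3 of each breed, which in Hu can depend on the scale of Hu 3 (median-of-ratios factor 1.6). Their log2 differences were -0.32 (95% CI -1.38 to 0.74; -0.033 without Hu 2) and 0.07 (95% CI -1.03 to 1.17); that of TIMP3 turned to -0.30 without Hu 3 and to -0.17 without Mongolian 1. TIMP1 exceeded TIMP2 in 4 libraries, by 1.43 times in Hu 1, 3.25 in Hu 2, 3.33 in Hu 3 and 2.85 in Mongolian 3, and lay below it in Mongolian 1 (0.64 times) and Mongolian 2 (0.482 times). TIMP4 was not listed by symbol.

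SERPINE2 was the most abundant of the serpins that inhibit extracellular proteases. SERPINE2, or protease nexin 1, which blocks thrombin and plasminogen activators and is made by granulosa cells, stood at 82.2, 17.9 and 57.7 FPKM across Hu libraries, against 26.9, 14.6 and 34.8 across Mongolian ones. Hu 1 and Hu 3 lay above all Mongolian libraries, and Hu 2 lay among the lowest. Means were 52.6 ± 32.5 and 25.4 ± 10.2 (SD, n = 3 each), with a log2 difference of 0.86 (95% CI -0.41 to 2.12, limma adjusted p = 0.998), 0.41 without Hu 1, 1.48 without Hu 2 and -0.024 with the library weights.

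SERPINE2 and INHA had the same order of level over the libraries, except that Hu 2 and Mongolian 2, the lowest of both genes, changed places. INHA stood at 99.1, 15.6 and 45.2 FPKM for the Hu ovaries and 25.9, 15.8 and 40.4 for the Mongolian ovaries. On log2(FPKM + 1) r was 0.972 (exact permutation p = 0.00278, adjusted over 5 pairs 0.0139) and rho 0.943 (exact permutation p = 0.0167, adjusted 0.0417), r without Hu 1 and Mongolian 2 was 0.941 over the other 4, and INHA ranked 5 among 9970 other genes by r with SERPINE2. The granulosa marker list, which holds SERPINE2 itself, had 5 of 9 genes listed and summed to 274, 44.4 and 141 FPKM among Hu and 79.1, 64.6 and 98.9 among Mongolian libraries; FSHR was listed at 0 in Hu 1, Mongolian 1 and Mongolian 2. Other genes of that list did not keep the order of SERPINE2. FST stood at 9.78, 0.23 and 4.28 FPKM among Hu and 12.31, 7.65 and 15.02 among Mongolian libraries. Its log2 difference was -1.57. INHBA was highest in Hu 1 (82.96 FPKM), as SERPINE2 was, but lowest in Mongolian 3 (6.72). The part of granulosa cell content in the level of SERPINE2 was not tested.

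The remaining serpins of higher level had differences near 0, each with an interval or error far wider than the difference. SERPINH1, the endoplasmic reticulum chaperone of procollagen, stood at 43.2, 77.5 and 98.4 FPKM for the Hu ovaries and 70.5, 71.2 and 93.3 for the Mongolian ovaries (log2 difference -0.16, 95% CI -1.17 to 0.84, and 0.17 without Hu 1). SERPING1, the inhibitor of complement component C1, had the narrowest range of the abundant genes, 10.9 to 14.2 FPKM over all 6 libraries, and a log2 difference of -0.04 (95% CI -1.17 to 1.10). That interval takes in the spread of other genes, so it does not measure the spread of these 6 values alone. SERPINF1, the antiangiogenic protein PEDF, stood at 6.03, 10.9 and 14.4 FPKM among Hu and 5.51, 12.3 and 7.41 among Mongolian libraries (log2 difference 0.28, SE 0.60, and 0.027 without Hu 3).

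SERPINF2, which inhibits plasmin and lies beside SERPINF1 in the RefSeq annotation, stood at 0.504, 2.53 and 5.58 FPKM across Hu libraries, against 2.7, 2.45 and 8.16 across Mongolian ones, highest in replicate 3 of each breed. SERPINB1, an inhibitor of neutrophil proteases, ranged from 2.77 to 21.7 FPKM with a log2 difference of -0.01 that lay between -0.75 and 0.54 when a library was left out. SERPINA1, the antitrypsin gene, was listed at 3.1, 0 and 2.79 FPKM for the Hu ovaries and 0.758, 0 and 2.46 for the Mongolian ovaries, at 0 in replicate 2 of each breed. SERPINA5 was listed at 0.744 FPKM or less, and SERPINA14, a serpin known from the ruminant uterus, at 2.72 in Hu 3 and at 0 elsewhere.

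Related genes outside these families were counted from a list of 52 in 7 groups, of which 36 were listed by symbol and 27 were tested. None of the 27 passed the limma test over all genes. Of them 15 had a positive and 12 a negative difference, with a median of 0.06. Over all genes tested 32.3% were positive and the median was -0.28. PLAT, tissue plasminogen activator, stood at 9.5, 22.4 and 19.5 FPKM among Hu and 25.9, 24.5 and 12.8 among Mongolian libraries, while PLAU, the urokinase gene, reached 0.443 at most. PLAT was thus the main plasminogen activator transcript in all 6 libraries, with a log2 difference of -0.30 (SE 0.55) that turned to 0.055 without Hu 1. PLAUR, the urokinase receptor, stood at 0, 5.21 and 3.24 FPKM across Hu libraries, against 1.73, 1.26 and 0 across Mongolian ones (log2 difference 0.70, SE 0.80, 0.17 without Hu 2 and 1.48 without Hu 1).

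Among inhibitors outside the TIMP and serpin families, CST3, the secreted inhibitor of cysteine cathepsins, was the most abundant. It stood at 39.3, 59.89 and 55.0 FPKM for the Hu ovaries and 66.9, 92.0 and 59.94 for the Mongolian ovaries, with all Hu values below all Mongolian ones by a small margin (log2 difference -0.50, 95% CI -1.47 to 0.48). RECK, a membrane-anchored inhibitor of MMP2, MMP9 and MMP14, stood at 3.34, 0.996 and 2.7 FPKM among Hu and 0, 1.95 and 0 among Mongolian libraries (log2 difference 1.15, SE 0.69, limma adjusted p = 0.998). BSG, which induces MMPs in neighbouring cells, lay between 22.2 and 23.1 in Mongolian and between 13.5 and 33.6 in Hu. LGMN, the asparaginyl protease that matures cathepsins, stood at 7.24, 25.1 and 10.3 FPKM across Hu libraries, against 6.99, 16.7 and 12.7 across Mongolian ones, highest in replicate 2 of each breed as CTSB was (log2 difference 0.11, SE 0.61, and -0.37 without Hu 2).

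All 3 tested genes of BMP1 type and of endothelin conversion (BMP1, TLL2 and ECE1) had negative differences, from -0.63 to -0.55, and FAP, a serine protease of activated fibroblasts, a positive one of 1.36 (SE 0.77), at 4.36 to 4.83 FPKM for Hu ovaries, against 1.33, 3.52 and 0 for Mongolian ones. WFDC1, a small secreted protein with a protease-inhibitor fold, had the smallest unadjusted p among the inhibitors outside the families (0.0333, limma adjusted p = 0.998), at 20.7, 14.1 and 15.1 FPKM for the Hu ovaries and 0, 11.7 and 6.96 for the Mongolian ovaries, without overlap. FAP and WFDC1 were chosen after their values were seen.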

How the data were processed

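The authors deposited FPKM values per gene with a column for each of 6 libraries of sheep ovary; the table of lncRNAs was not used. Libraries were made from total RNA with a SMARTer kit, per the labels' protocols. For the aligner, counter, genome build and filters: not given in the sources used here. No position or sequence is printed. Columns were matched to samples by the codes in the sample descriptions. Low values showed no steps of single reads: between any pair of libraries, at most 0.566% of low genes shared a ratio within a window of 0.2%. No count model was therefore used, and no value above 0 was identical between libraries.

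Genes reaching 0.5 FPKM in 3 or more libraries (9971) were tested on log2(FPKM + 1), which understates changes of scarce genes, with limma 3.58.1 in R 4.3.3 (eBayes with a trend, two-sided, breed as the only factor, Benjamini-Hochberg adjustment over all 9971 genes, call at an adjusted p under 0.05). The procedure was tested on simulated data. Members, gene lists and alternatives were chosen with earlier results of these data known. Values are given in the order of replicates 1, 2 and 3. Genes described in full were the 8 of highest mean; the 6 of smallest p per direction whose mean reached 1 FPKM in either breed; TIMP and HTRA genes; those without overlap; and fixed genes of ovulation and plasminogen activation. Other members are given by values in their family; the values of 1 member, which stays in the counts and sums, are not reported here. Of 62 members 60 matched the RefSeq table by symbol. Alternatives were other pseudocounts, filters, scalings, eBayes settings, array weights, a replicate block, each library left out in turn, and Hu 1 and Hu 3 left out together. A paired fit and its check are given with the dependence on processing.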

Additional observations from a re-analysis of the deposited data

How the results depend on the processing

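The count of genes called, 0, remained 0 with a pseudocount of 0.1, no filter, a filter at 5 FPKM, only rows above 0 in all 6 libraries, the 3 scalings, and eBayes without a trend. It was 633 with array weights (75 higher and 558 lower in Hu; ADAMTS10, CTSV and HTRA2 among them, all lower), where Hu 2 weighed 3.64 and Hu 3 0.25, and 6 without Hu 1 and Hu 3 together (0 of the protease and inhibitor genes), a fit in which the lone Hu library is assumed to vary like the Mongolian ones, and it lay between 0 and 4 when a library was left out (0 of these genes each time). With the replicate number as a block it was 0, with 397 genes at an unadjusted p under 0.05 against 372 without. Same-numbered libraries did not deviate together across genes (r = -0.013, -0.03 and -0.18). The labels state no pairing, and so few libraries cannot settle whether the numbers pair them. Without a filter 31 of the 62 had a positive difference (39.2% of all genes there). With a filter at 5 FPKM it was 10 of 18 (36.9% of all genes there). The genes without overlap were 4 before any scaling, with Hu above in 0 and below in 4. With median-of-ratios scaling they were also 4, with Hu above in 1 and below in 3. With quantile normalization they were 5, with Hu above in 2 and below in 3. They numbered 7 when summed FPKM without the 2 most abundant rows was made equal (12.8% of all genes tested), with Hu above in 2 and below in 5. Without Hu 1 and Hu 3 together they numbered 22 of 41 (57.3% of all genes tested there). When a library was left out they numbered 5 to 13 (11.4% to 34.4% of all genes), the 13 of 41 and the 34.4% both without Hu 3.

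Of the 41 genes 30 kept the sign of their difference in each of 10 alternatives (3 scalings, a pseudocount of 0.1 and each library left out), 14 positive and 16 negative. Under a scaling the sign turned for 7 of the 41: with median-of-ratios scaling SERPINH1 (5e-04), MMP14 (0.10), SERPINB1 (0.13) and SERPING1 (0.12), as for BSG (0.10), and with quantile normalization ADAM9 (0.12), ADAMTS2 (0.021) and CTSH (0.17); SERPINB1 and SERPING1 turned under both. For the 11 members whose sign turned when a library was left out, the difference lay between -0.36 and 0.42 for MMP2, -0.42 and 0.17 for SERPINH1, -0.30 and 0.28 for TIMP3, -0.43 and 0.53 for ADAMTS1, -0.40 and 0.34 for MMP14, -1.001 and 0.61 for ADAMTS2, -0.66 and 0.81 for ADAM9, -0.38 and 0.34 for CTSH, -0.15 and 0.42 for CTSK, -0.75 and 0.54 for SERPINB1, and -0.14 and 0.057 for SERPING1; outside the families it lay between -0.61 and 0.055 for PLAT, -0.36 and 0.27 for BSG, and -0.37 and 0.46 for LGMN. The causes were not tested. The unknown depth limits what a 0 means in genes of under about 5 FPKM.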

Other observations

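Of 8 matrix substrates in the list 6 were tested, all with a positive log2 difference (median 0.30). Of all genes tested 32.3% were positive, with a median of -0.28. Among the substrates 0 passed the limma test over all genes, and FN1 alone had an unadjusted p under 0.05. FN1 stood at 20.6, 25.7 and 16.2 FPKM among Hu and 2.05, 8.94 and 13.5 among Mongolian libraries, without overlap. The differences of VCAN (0.06) and DCN (0.07) lay close to 0, and signs were not recomputed under other scalings for this list. VCAN, the proteoglycan of the cumulus and follicle wall that ADAMTS1 cleaves, stood at 6.69, 6.31 and 5.86 FPKM for Hu libraries 1 to 3, compared with 3.53, 5.38 and 10.7 for Mongolian libraries 1 to 3. NID1, nidogen of the basement membrane, stood at 11.9, 13.4 and 15.8 FPKM among Hu and 14.4, 7.6 and 5.7 among Mongolian libraries, and FBN1, fibrillin 1, at 5.17, 2.99 and 4.38 FPKM among Hu and 2.54, 3.62 and 3.14 among Mongolian libraries.

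Single libraries stood apart in a few related genes. PRSS35, a serine protease described in ovarian follicles, was listed at 4.22 FPKM in Hu 1 and at 0.448 or less in each other library. PRSS23 stood at 16.8 in Mongolian 3 and at 3.1 or less elsewhere. TFPI, the tissue factor pathway inhibitor, was listed in Hu 3 alone (3.07 FPKM), whereas its relative TFPI2 was listed in all 6 libraries at 7.47 to 21.8.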
